A study of Mus musculus with 21 samples.

Results

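Rod photoreceptor genes were followed in RNA sequencing of cells sorted as retinal ganglion cells, which send their axons to the brain through the optic nerve. The members are a fixed list of 30 genes for rod phototransduction, the outer segment that houses it and the factors that set rod fate, and all 30 were among the 17164 genes counted. The rule is a list of gene names and uses no measured value, but the list was drawn up with earlier results of these data known. Several members (Crx, Prph2, Rom1, Unc119, Aipl1, Rp1, Abca4 and Rdh12 among them) also work in cones.

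In a rod, light activates the visual pigment, which switches on the G protein transducin, and transducin releases a phosphodiesterase that breaks down cyclic GMP. The fall in cyclic GMP shuts cation channels in the outer segment membrane. A kinase, an arrestin and an RGS protein then end the response, and falling calcium restarts cyclic GMP synthesis through guanylate cyclases and their activating proteins. Rods are the most abundant neuron of the mouse retina, and ganglion cells are not known to use this cascade.

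The mice were C57BL/6, aged 6 to 7 weeks in the authors' sample sheet, and every group was taken 3 days after the optic nerve had been crushed, so there is no uninjured group. The groups are ATF3 knockout (5 libraries, replicates 5 to 9), ATF4 knockout (2 libraries, replicates 1 and 3), CEBPG knockout (4 libraries, replicates 6, 8, 9 and 10), CHOP knockout (5 libraries, replicates 1 to 5) and control (4 libraries, replicates 4, 5, 7 and 8). ATF3, ATF4, C/EBP gamma and CHOP (encoded by Ddit3) are bZIP transcription factors. The knockouts were made with guide RNAs against the named gene and the controls received a control guide, listed as non-targeting in the sheet. The sources used here do not give how guides and Cas9 were delivered, nor which retinal cells were edited. Each library came from 5000 to 10000 sorted cells.

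The controls were male and of batch 2 in the sheet, the ATF3, CEBPG and CHOP knockouts female and of batch 3, and the ATF4 knockouts of batch 1, replicate 1 female and replicate 3 male. No batch holds both controls and a knockout, so for every comparison with control the knockout cannot be told apart from the batch, and for ATF3, CEBPG and CHOP it cannot be told apart from sex either. Both ATF4 libraries held reads of the Y-linked gene Ddx3y (59.4 and 64.2 CPM before TMM scaling), against the sheet's sex for replicate 1. The sheet does not say what its batches are. Comparisons among ATF3, CEBPG and CHOP knockouts stay inside batch 3 and inside one sex. Counted reads numbered 6401446 to 11752828 in the controls and 9000250 to 32776378 in the knockouts, and the smallest count of any member in any library was 40 reads. Atf3 was at 30.6 to 48.0 CPM in the ATF3 knockouts and 104 to 125 CPM in the controls, Atf4 at 148 to 160 CPM in the ATF4 knockouts and 216 to 387 CPM in the controls, and Ddit3 at 57.4 to 72.6 CPM in the CHOP knockouts and 75.4 to 109 CPM in the controls. Cebpg was at 49.2 to 92.4 CPM in the CEBPG knockouts and 74.6 to 93.6 CPM in the controls, so those ranges overlap. CPM here are counts over each library's total after TMM scaling. CEBPG replicates 6 and 8 stood apart on the fourth principal component, and results that involve CEBPG are also given without them where they change. The 14 ganglion cell markers summed to 0.0417% to 0.0658% of the counted reads in the knockouts and 0.0452% to 0.0596% in the controls, with up to 3 of the 14 at 0 in a library. Against control, 5 of them were lower and 5 higher in ATF3, 0 and 7 in ATF4, 5 and 3 in CEBPG, and 3 and 4 in CHOP knockouts. Over all genes 14.6% to 15.4% were called lower and 16.6% to 18.6% higher in those comparisons. Rbpms averaged 8.99 CPM in ATF3, 44.4 in ATF4, 29.4 in CEBPG and 13.5 in CHOP knockouts, against 22.9 CPM in controls, and Nefl, the most abundant of the 14, 404, 223, 275 and 328 CPM in the same knockouts, against 270.3 CPM in controls. Pou4f2, a transcription factor that defines ganglion cells, averaged 0.173 CPM in ATF3, 2.91 in ATF4, 0 in CEBPG and 0.484 in CHOP knockouts, against 1.51 CPM in controls. These marker values do not show that the sorted cells were mostly ganglion cells.

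Regulatory sequence is shown for 4 members as background. Rod promoters are known targets of CRX, a homeodomain factor that binds TAATCC and its reverse complement GGATTA. They are also targets of NRL, a bZIP factor that acts beside it. RefSeq promoter windows of 300 bases (250 before to 50 after the gene start, build GRCm38.p6) were found for 22 of the 30 members, with 24 windows because Unc119 has 3. The windows below run 5′ to 3′ on the gene's own strand, and capitals mark TAATCC, or its complement, and TGCTGA, the core of the element that NRL-type factors bind. Sag is shown as the most abundant member with both motifs, Crx because it encodes the factor, Cngb1 as a window with a pair of matches in the forward sense, and Prph2 as an abundant member with neither. They lie at chr1:87803430-87803729 (+), chr7:15879906-15880205 (-), chr8:95306536-95306835 (-) and chr17:46910228-46910527 (+).
Sag: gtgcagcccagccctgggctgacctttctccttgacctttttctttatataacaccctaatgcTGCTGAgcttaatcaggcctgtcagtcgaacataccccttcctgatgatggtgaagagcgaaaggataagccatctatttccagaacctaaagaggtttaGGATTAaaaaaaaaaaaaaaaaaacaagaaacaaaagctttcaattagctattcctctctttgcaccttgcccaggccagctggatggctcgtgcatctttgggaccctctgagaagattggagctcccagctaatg
Crx: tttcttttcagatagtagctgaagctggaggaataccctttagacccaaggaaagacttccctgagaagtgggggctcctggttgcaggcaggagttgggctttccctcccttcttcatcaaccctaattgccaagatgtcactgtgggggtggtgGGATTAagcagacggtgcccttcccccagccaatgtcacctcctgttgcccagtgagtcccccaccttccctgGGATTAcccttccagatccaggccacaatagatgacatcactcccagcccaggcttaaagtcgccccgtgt
Cngb1: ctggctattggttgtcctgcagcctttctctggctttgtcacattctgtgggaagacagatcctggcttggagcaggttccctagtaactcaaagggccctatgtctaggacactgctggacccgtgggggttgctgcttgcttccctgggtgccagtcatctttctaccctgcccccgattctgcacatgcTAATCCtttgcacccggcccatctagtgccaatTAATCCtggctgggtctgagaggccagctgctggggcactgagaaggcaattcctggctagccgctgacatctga
Prph2: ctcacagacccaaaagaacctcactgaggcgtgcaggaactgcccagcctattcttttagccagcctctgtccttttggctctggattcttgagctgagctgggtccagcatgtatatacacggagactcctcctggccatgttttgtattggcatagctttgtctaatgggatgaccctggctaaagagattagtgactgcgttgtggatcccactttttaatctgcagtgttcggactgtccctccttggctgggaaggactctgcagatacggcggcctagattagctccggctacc
TAATCC on either strand was present in 11 of the 24 member windows (45.8%), against 7.06% of the 32851 windows of the whole table. TGCTGA on either strand was present in 7 of 24 (29.2%), against 19.5%, and both in 2 of 24 (8.33%), against 1.36%. The motif matches did not overlap each other in the printed windows. The upstream TAATCC matches of Crx began 94 and 21 bases before its start, those of Cngb1 58 and 25 bases before, and that of Sag 87 bases before. Prph2, Rom1, Nrl, Nr2e3, Fscn2, Slc24a1 and Pdc held neither motif in their windows. A match is a description of letters, not of a bound site. The list was chosen as rod genes, so its motif shares do not speak to the differences between groups.

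All 30 members were lower in each of the 4 knockouts than in the controls. The median log2 fold change was -3.28 for ATF3 knockout, -3.09 for ATF4 knockout, -3.53 for CEBPG knockout and -2.66 for CHOP knockout, against medians of 0.06, 0, 0.06 and 0.01 over the 16797 genes tested. As folds, the members' medians were 9.68 times lower in ATF3, 8.54 times lower in ATF4, 11.6 times lower in CEBPG and 6.34 times lower in CHOP knockouts. Every member passed in every comparison (edgeR quasi-likelihood test, adjusted p below 0.05), where the share of all genes called lower was 14.8% for ATF3 knockout, 14.6% for ATF4 knockout, 15% for CEBPG knockout and 15.4% for CHOP knockout. The largest adjusted p among the 120 tests was 0.0041, for Gucy2f in ATF4 knockouts. No knockout library reached the lowest control for any member. Non-overlap in that direction was found in 15.4% of all genes for ATF3 knockout, 21.1% for ATF4 knockout, 12.8% for CEBPG knockout and 13.5% for CHOP knockout. The 4 comparisons share the same 4 controls and are therefore not independent of each other. In sorted bulk cells, fewer rods and less RNA per rod cannot be told apart.

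Summed over the 30 members, rod genes took 0.493% ± 0.0128 of counted reads in ATF3 knockouts (SD, n = 5), 0.556% ± 0.103 in ATF4 knockouts (n = 2), 0.464% ± 0.123 in CEBPG knockouts (n = 4) and 0.769% ± 0.141 in CHOP knockouts (n = 5), against 4.84% ± 1.03 in controls (n = 4). By library these shares were 0.497, 0.476, 0.508, 0.484 and 0.500% in ATF3 knockouts, 0.629 and 0.484% in ATF4 knockouts, 0.365, 0.619, 0.507 and 0.364% in CEBPG knockouts, 0.550, 0.806, 0.872, 0.898 and 0.718% in CHOP knockouts, and 3.96, 5.45, 3.97 and 5.97% in controls, in order of replicate number as everywhere here. The controls were all above the highest knockout, CHOP replicate 4, while the knockout groups overlapped in part. The ATF3 libraries lay closest together and the CEBPG libraries spread most for their level.

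**Figure D1:**
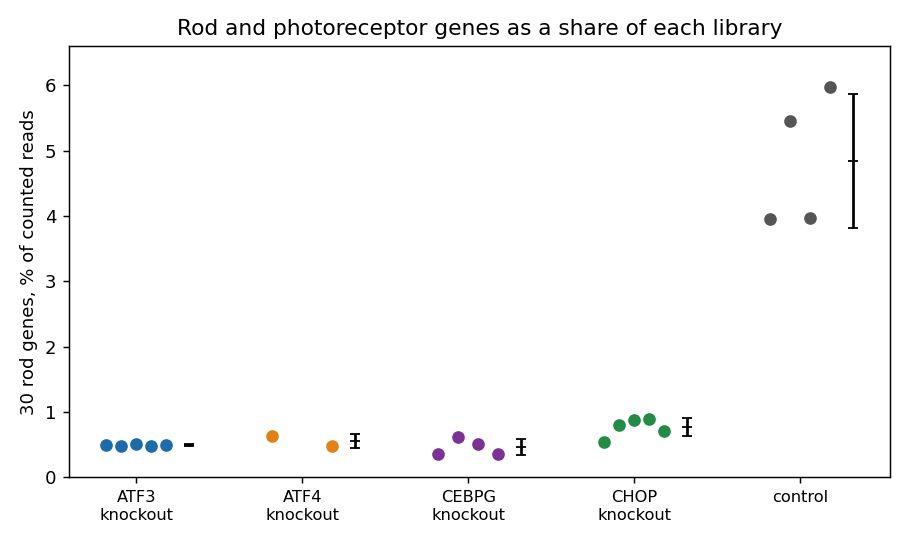
Summed share of counted reads (y axis, %) taken by the 30 rod genes in each library (coloured points) of the 5 groups (x axis), with the group mean and SD beside them in black. The 16 knockout libraries lie between 0.364% and 0.898% and the 4 control libraries between 3.96% and 5.97%.

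Within most groups the same library was high or low for most members. Control replicate 8 held the highest control value for 24 of the 30 members and replicate 5 for the other 6, and replicates 4 and 7 held the lowest for 18 and 12. CHOP replicate 1 was the lowest CHOP library for 27 members, CEBPG replicate 8 the highest CEBPG library for 23, and ATF4 replicate 1 the highest of its pair for 25. In the ATF3 knockouts no library was highest for more than 11 or lowest for more than 10 members.

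Per kilobase of exon, the members covered a wide range of levels in the controls. Gnat1 stood first with 3873 ± 851 CPM per kilobase (SD, n = 4), followed by Prph2 with 1826 ± 343 and Rom1 with 1716 ± 336 CPM per kilobase, whose spreads overlap. The guanylate cyclase genes were lowest, Gucy2e with 9.93 ± 2.59 and Gucy2f with 7.33 ± 1.98 CPM per kilobase. Exon lengths were taken from the GENCODE annotation of mm10.

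**Figure D2:**
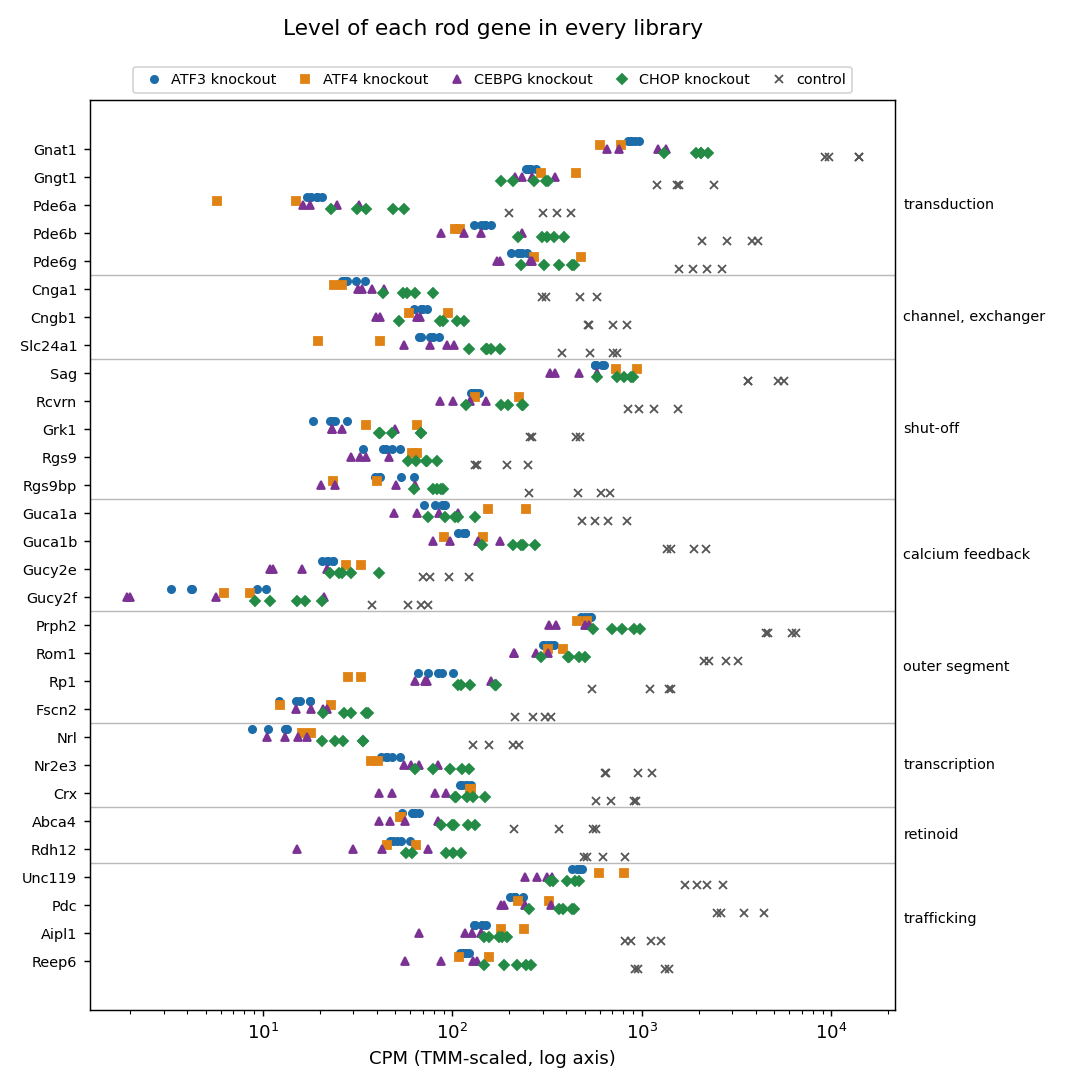
CPM (x axis, log scale, TMM-scaled) of each of the 30 rod genes (rows, ordered by role) in every library, with 1 point per library and a colour and symbol per group. The control crosses sit to the right of all knockout points in each row.

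Among the transduction genes, Gnat1, the rod transducin alpha subunit (mm10 chromosome 9, 107674474 to 107679712, minus strand), was at 927, 878, 877, 850.2 and 968 CPM in ATF3 knockouts, 777 and 606 CPM in ATF4 knockouts, 652, 1346, 1219.8 and 760.2 CPM in CEBPG knockouts and 1311, 2047, 2062, 2248 and 1939 CPM in CHOP knockouts, against 9675, 13942, 9328 and 13980.3 CPM in controls. All CHOP libraries but replicate 1 were above every other knockout library. Gnat1 supplied a large part of the summed share, and without it the share was 0.403% in ATF3 knockouts, 0.489% in ATF4, 0.361% in CEBPG and 0.577% in CHOP knockouts, against 3.70% in controls. Its log2 fold change against control was -3.70 (SE 0.20) in ATF3, -4.08 (SE 0.30) in ATF4, -3.56 (SE 0.21) in CEBPG and -2.61 (SE 0.19) in CHOP knockouts. Pde6b, the beta catalytic subunit of the phosphodiesterase (chromosome 5, 108388391 to 108432397, plus strand), was at 129, 149, 149, 161 and 142 CPM in ATF3, 103 and 109.5 CPM in ATF4, 86.9, 234, 141 and 116 CPM in CEBPG and 223, 298, 344, 389 and 314 CPM in CHOP knockouts, against 2806, 3798, 2085 and 4089.9 CPM in controls. Again all CHOP libraries but replicate 1 were above the other knockouts. Its falls were the largest of any member in ATF3 (-4.45, SE 0.23), CEBPG (-4.47, 0.26) and CHOP knockouts (-3.35, 0.22), and it fell by 4.91 (SE 0.36) in ATF4 knockouts. The catalytic alpha subunit Pde6a had log2 fold changes of -4.08 (ATF3), -4.94 (ATF4), -3.81 (CEBPG) and -3.05 (CHOP). Of the small subunits, the inhibitory subunit Pde6g had -3.20, -2.48, -3.25 and -2.56, and the transducin gamma subunit Gngt1 -2.70, -2.18, -2.66 and -2.70, in the same order.

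Of the channel and exchanger genes, Slc24a1, the rod sodium, calcium and potassium exchanger, was at 67.01, 68.2, 79.3, 76.2 and 84.96 CPM in ATF3, 41.6 and 19.5 CPM in ATF4, 76.2, 102, 93.7 and 55.8 CPM in CEBPG and 122, 161, 151, 179 and 152 CPM in CHOP knockouts, against 534, 739, 377 and 705 CPM in controls. The ATF4 pair was the lowest of the 4 knockouts, and all CHOP libraries were above all other knockout libraries. Its log2 fold change was -4.27 (SE 0.33) in ATF4 knockouts and -1.94 (SE 0.20) in CHOP knockouts. Cngb1, the beta subunit of the cyclic GMP channel, was at 73.2, 69.6, 68.8, 62.6 and 69.6 CPM in ATF3, 94.8 and 59.2 CPM in ATF4, 39.7, 67.8, 65.4 and 41.4 CPM in CEBPG and 52.5, 105, 86.4, 116 and 89.8 CPM in CHOP knockouts, against 521, 706, 524 and 834 CPM in controls. Its knockout groups overlapped each other, with CHOP replicate 1 inside the range of the CEBPG libraries and below both ATF4 libraries. Cnga1, the alpha subunit of that channel, had log2 fold changes of -3.82 (ATF3), -4.06 (ATF4), -3.50 (CEBPG) and -2.80 (CHOP).

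In the shut-off group, Sag, the rod arrestin that caps the phosphorylated pigment, was at 576, 564, 613, 632 and 565 CPM in ATF3, 942 and 732 CPM in ATF4, 347, 583, 469 and 327 CPM in CEBPG and 581, 805, 877, 904 and 742 CPM in CHOP knockouts, against 3649, 5232, 3637 and 5629 CPM in controls. Unlike Gnat1, it was higher in both ATF4 libraries than in every ATF3 and CEBPG library. Rcvrn, the calcium sensor recoverin that restrains the pigment kinase, was at 131, 126, 132, 139 and 129.8 CPM in ATF3, 225 and 131 CPM in ATF4, 86.3, 150.4, 125 and 101 CPM in CEBPG and 118, 196, 234, 235 and 180.1 CPM in CHOP knockouts, against 849, 1162, 966 and 1546 CPM in controls. The knockout groups overlapped for Rcvrn, although CHOP replicates 2 to 5 were above every ATF3 library. Rgs9, which speeds GTP hydrolysis by transducin, was at 33.9, 44.8, 52.9, 47.8 and 43.2 CPM in ATF3, 65.1 and 61.00 CPM in ATF4, 46.2, 35.2, 29.3 and 32.6 CPM in CEBPG and 58.3, 82.7, 72.6, 64.3 and 73.3 CPM in CHOP knockouts, against 132, 193, 135 and 249.6 CPM in controls. All CHOP libraries were above the ATF3 and CEBPG libraries and overlapped the ATF4 pair. It changed least of all members in ATF3 (-1.99, SE 0.18), ATF4 (-1.49, SE 0.25), CEBPG (-2.31, SE 0.20) and CHOP knockouts (-1.34, SE 0.18), whereas its membrane anchor Rgs9bp had -3.40, -3.98, -3.65 and -2.64 in that order. Grk1, the pigment kinase, had -3.96, -2.85, -3.56 and -2.75.

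For calcium feedback, Guca1b, an activating protein of the guanylate cyclases, was at 117, 107, 117, 117 and 114 CPM in ATF3, 145 and 90.5 CPM in ATF4, 79.02, 179, 137 and 97.7 CPM in CEBPG and 143, 230.1, 272, 237 and 210.3 CPM in CHOP knockouts, against 1366, 1894, 1428 and 2175 CPM in controls. Guca1a, the second such protein and one that cones also use, was at 87.9, 71.1, 80.7, 90.9 and 91.4 CPM in ATF3, 245 and 155 CPM in ATF4, 49.3, 107, 85.03 and 65.3 CPM in CEBPG and 74.8, 103, 132, 107 and 91.4 CPM in CHOP knockouts, against 486, 662, 567 and 835 CPM in controls. In ATF4 knockouts Guca1b fell by 3.86 (SE 0.32) on the log2 scale and Guca1a by 1.67 (SE 0.27), and the ATF4 pair was the highest of the knockouts for Guca1a. The cyclase gene Gucy2e had log2 fold changes of -2.03 (ATF3), -1.59 (ATF4), -2.60 (CEBPG) and -1.66 (CHOP). Gucy2f, the least abundant member, was at 6.30 ± 3.32 CPM in ATF3 (n = 5), 7.42 ± 1.66 in ATF4 (n = 2), 7.66 ± 9.11 in CEBPG (n = 4) and 14.5 ± 4.60 in CHOP knockouts (n = 5), against 59.6 ± 16.1 CPM in controls (SD, n = 4). Leaving out ATF4 replicate 3 ended the Gucy2f call for ATF4 knockout (-2.79, edgeR adjusted p = 0.058), in a fit with 1 ATF4 library that is assumed to vary like the other groups.

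At the outer segment, Prph2, the disc rim tetraspanin peripherin, was at 526, 478, 538, 501 and 530.2 CPM in ATF3, 514 and 456 CPM in ATF4, 325, 524, 502 and 354 CPM in CEBPG and 554, 785, 907, 975 and 699.9 CPM in CHOP knockouts, against 4656, 6196, 4542 and 6537 CPM in controls. Its partner Rom1 was at 332, 307, 343, 301 and 322 CPM in ATF3, 383 and 322 CPM in ATF4, 211, 322, 278 and 211 CPM in CEBPG and 294, 412, 466, 499.9 and 409 CPM in CHOP knockouts, against 2133, 2781, 2259 and 3240.4 CPM in controls. For Prph2 all CHOP libraries were above all other knockout libraries, and for Rom1 the CHOP range overlapped those of all other knockouts. Control replicate 8 was highest for both. The axoneme protein gene Rp1 had the largest single fall of the whole list, -5.20 (SE 0.44) in ATF4 knockouts, beside -3.76, -3.60 and -3.05 in ATF3, CEBPG and CHOP knockouts. Fscn2, an actin bundling protein of photoreceptors, had -4.15 (ATF3), -3.99 (ATF4), -3.88 (CEBPG) and -3.24 (CHOP).

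Of the transcription factors, Crx, the homeodomain factor of both photoreceptor types (chromosome 7, 15865947 to 15879968, minus strand), was at 118, 113, 126, 109.6 and 119 CPM in ATF3, 124 and 125 CPM in ATF4, 47.8, 80.9, 92.3 and 41.03 CPM in CEBPG and 103, 104, 120.2, 149 and 129 CPM in CHOP knockouts, against 688, 912, 572 and 933 CPM in controls. Nr2e3, the nuclear receptor that represses cone genes in rods (chromosome 9, 59942771 to 59960659, minus strand), was at 52.98, 44.97, 41.97, 44.9 and 48.1 CPM in ATF3, 40.5 and 37.1 CPM in ATF4, 60.7, 83.6, 66.6 and 55.4 CPM in CEBPG and 63.2, 97.04, 112, 122 and 78.7 CPM in CHOP knockouts, against 638, 961, 648 and 1137 CPM in controls. Nrl, the bZIP factor that commits photoreceptors to the rod fate (chromosome 14, 55518978 to 55524981, minus strand), was at 13.1, 8.81, 13.5, 13.2 and 10.7 CPM in ATF3, 16.05 and 17.9 CPM in ATF4, 13.1, 17.1, 15.4 and 10.5 CPM in CEBPG and 20.6, 24.2, 33.6, 33.9 and 26.6 CPM in CHOP knockouts, against 129, 209, 156 and 226 CPM in controls. The CEBPG libraries were below all other knockouts for Crx and above both ATF3 and ATF4 libraries for Nr2e3, and the CHOP libraries were above all other knockouts for Nrl. In ATF3 and ATF4 knockouts the log2 fold changes were -4.18 (SE 0.19) and -4.45 (SE 0.30) for Nr2e3, -3.92 (SE 0.21) and -3.41 (SE 0.30) for Nrl, and -2.73 (SE 0.19) and -2.64 (SE 0.27) for Crx. In CEBPG knockouts they were -3.67 for Nr2e3, -3.68 for Nrl and -3.56 for Crx, and differences between genes were not tested. A long noncoding gene, Gm15507, overlaps Nr2e3 over 61 exonic bases (1.81% of its exons), and the sources used here do not say whether counting used strand.

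For the retinoid genes, Rdh12, a retinal reductase of the inner segment, was at 46.9, 51.3, 59.6, 48.9 and 53.8 CPM in ATF3, 64.7 and 45.3 CPM in ATF4, 15.1, 74.8, 42.6 and 29.9 CPM in CEBPG and 56.9, 93.02, 111, 101 and 60.99 CPM in CHOP knockouts, against 497, 625, 512 and 813 CPM in controls. Abca4, the disc transporter that clears retinal, was at 62.03, 54.5, 66.4, 63.5 and 61.6 CPM in ATF3, 53.3 and 52.9 CPM in ATF4, 46.7, 83.6, 56.6 and 41.3 CPM in CEBPG and 102, 99.1, 87.2, 122 and 131 CPM in CHOP knockouts, against 365, 575, 212 and 549.7 CPM in controls. For Rdh12 the CEBPG libraries spread wider for their level than any other group, and CEBPG replicate 6 was the lowest of all 20, while for Abca4 the CHOP libraries were above all other knockouts. Of the trafficking genes, Pdc, phosducin, which binds transducin beta and gamma subunits, was at 236, 212, 203, 214 and 214 CPM in ATF3, 324 and 223 CPM in ATF4, 187, 333, 243 and 182 CPM in CEBPG and 253, 440.2, 386, 430.2 and 364 CPM in CHOP knockouts, against 2509, 3452, 2629 and 4443 CPM in controls. Unc119, which carries lipid-bearing transducin alpha, was at 455, 467, 484, 429 and 465 CPM in ATF3, 805 and 594 CPM in ATF4, 241, 336, 316 and 279.9 CPM in CEBPG and 329.5, 404, 467, 447 and 341 CPM in CHOP knockouts, against 1688, 2219, 1950.0 and 2668 CPM in controls. For Unc119 the ATF4 pair was the highest among knockouts, the CEBPG libraries were all below those of ATF3, and the CHOP libraries overlapped both. The chaperone Aipl1, which is needed for phosphodiesterase assembly, had log2 fold changes of -2.86 (ATF3), -2.28 (ATF4), -3.17 (CEBPG) and -2.57 (CHOP), and Reep6, which shapes membranes in the rod secretory path, had -3.31, -3.12, -3.49 and -2.44 in that order.

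**Figure D3:**
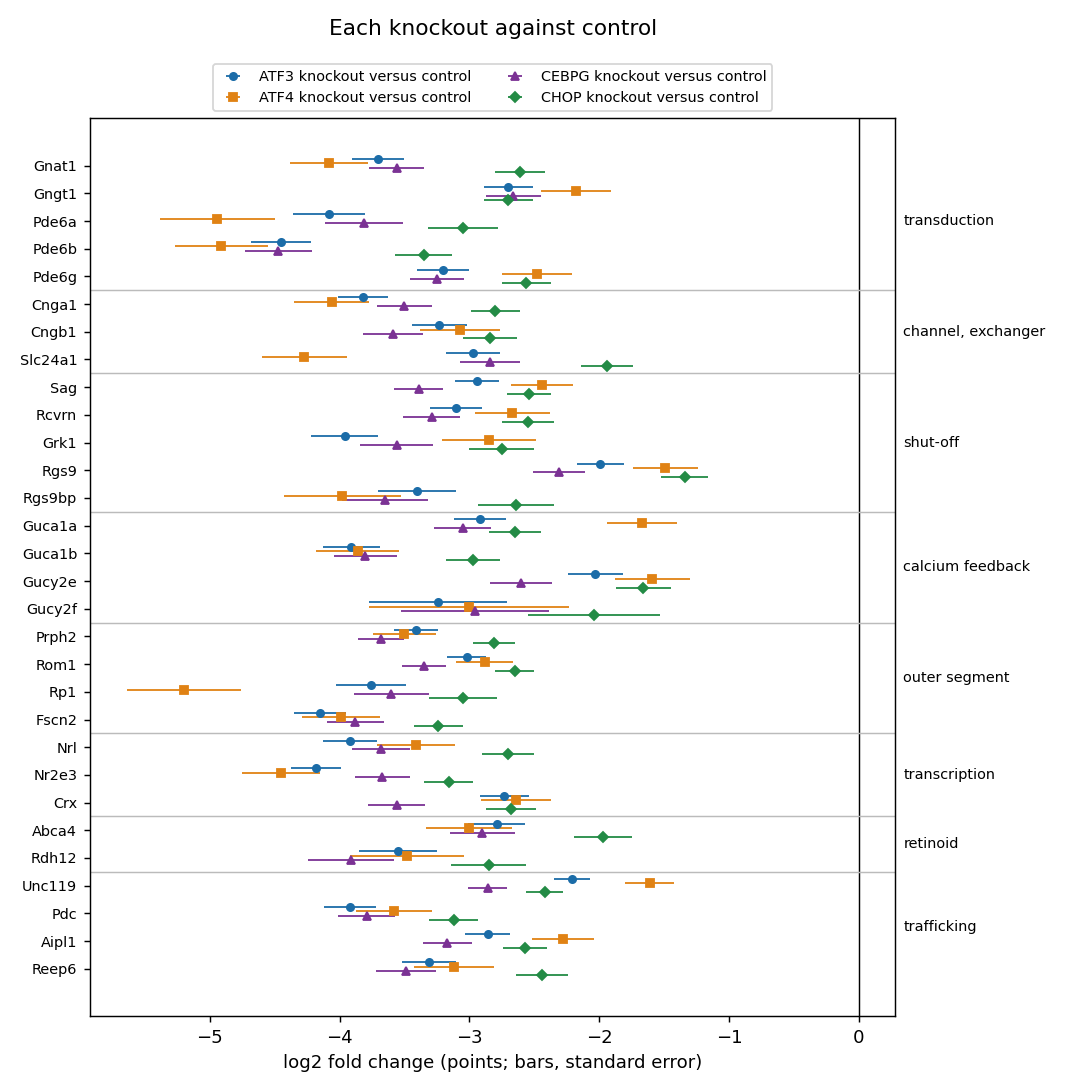
Log2 fold change against control (x axis, points) with its standard error (bars) for each rod gene (rows, by role) in the 4 knockouts. All points lie below 0, between -5.20 (Rp1, ATF4) and -1.34 (Rgs9, CHOP), and the ATF4 points spread most.

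The members did not all fall by the same factor, and the proportions among member transcripts differed between groups. The ratio of Gnat1 to Sag reads was 1.35 to 1.71 in ATF3 knockouts (5 libraries), 0.826 and 0.828 in the ATF4 knockouts, 1.88 to 2.60 in CEBPG knockouts (4 libraries) and 2.26 to 2.62 in CHOP knockouts (5 libraries), against 2.48 to 2.66 in controls (4 libraries). The ATF3 and ATF4 libraries lay below every control, while CEBPG and CHOP libraries reached into the control range. The ratio of Nr2e3 to Crx reads was 0.334 to 0.447 in ATF3, 0.327 and 0.296 in ATF4, 0.722 to 1.35 in CEBPG and 0.612 to 0.935 in CHOP knockouts, against 0.928 to 1.22 in controls. Here too the ATF3 and ATF4 libraries lay below every control, and the CEBPG range covered that of the controls. The ratio of Pde6b to Pde6g reads was 0.525 to 0.790 in ATF3, 0.217 and 0.406 in ATF4, 0.507 to 0.888 in CEBPG and 0.808 to 1.04 in CHOP knockouts, against 1.12 to 1.78 in controls, with no knockout library inside the control range. Such ratios do not depend on library scaling. Crx also works in cones, so the ratio of Nr2e3 to Crx is not one within rods alone. Whether cells other than rods shaped these ratios was not tested. The gene pairs were chosen after their values were seen, so the ratios are given with no test.

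**Figure D4:**
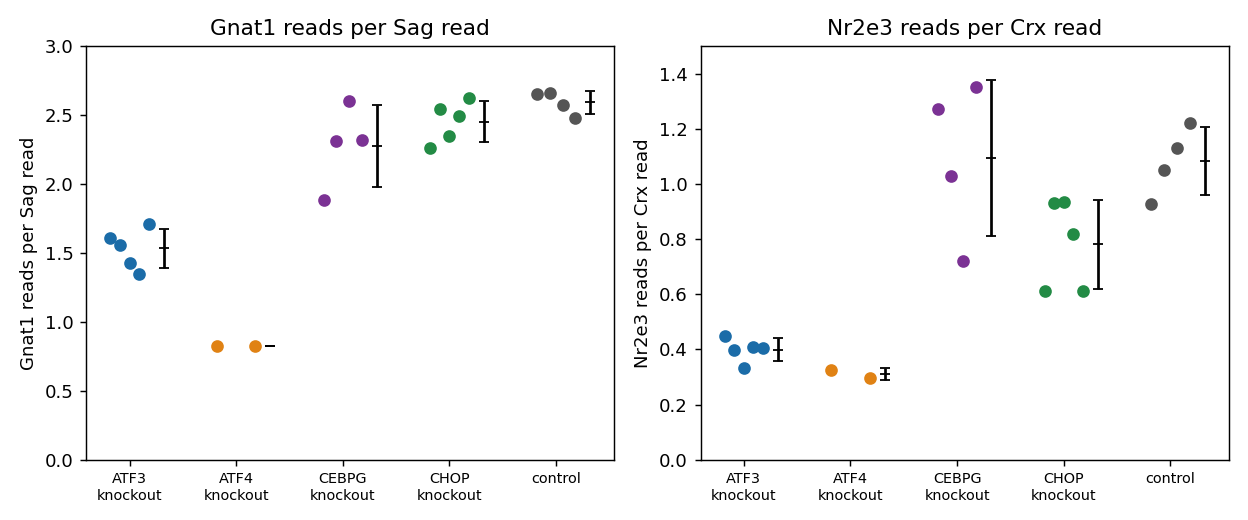
Gnat1 reads per Sag read (left) and Nr2e3 reads per Crx read (right) in each library (points) by group, with mean and SD in black. On the left the ATF4 pair is lowest (0.826 and 0.828) and all CHOP and control libraries lie at 2.26 or above; on the right the ATF3 and ATF4 libraries lie at 0.447 or below.

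Within batch 3, rod genes were higher in the CHOP than in the ATF3 knockouts. Of the 30 members, 15 were higher in CHOP than in ATF3 knockouts and 0 were lower (edgeR, adjusted p below 0.05), where 0.756% of all genes were called higher and 1.51% lower. The members' median log2 difference was 0.73 (1.66-fold), against 0.01 over all genes. The groups did not overlap for 17 members, all higher in CHOP, where 3.6% of all genes stood apart that way and 4.47% the other way. Nrl was 1.23 higher (SE 0.18, edgeR adjusted p = 0.000408), Gnat1 1.09 higher (SE 0.17, adjusted p = 0.000684) and Nr2e3 1.02 higher (SE 0.17, adjusted p = 0.00104), with every CHOP library above every ATF3 library for each of these genes. The others called were Pde6a, Pde6b, Cnga1, Slc24a1, Guca1b, Grk1, Rgs9, Prph2, Fscn2, Abca4, Pdc and Reep6, with differences from 0.61 (Prph2) to 1.21 (Grk1).

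The other 15 members did not pass. Crx differed by 0.05 between CHOP and ATF3 knockouts, with an interval of 2 SE on each side, not adjusted for the number of genes, from -0.30 to 0.40, and Gngt1 by 0.01 with an interval from -0.34 to 0.36. Unc119 was at -0.21, with an interval from -0.46 to 0.04. Sag differed by 0.41 (interval 0.10 to 0.71, edgeR adjusted p = 0.213). Leaving out each library in turn kept 10 of the 15 calls in every case. Prph2 lost the call without any one ATF3 library or without CHOP replicate 2, 3 or 4 (lowest difference 0.51, largest edgeR adjusted p = 0.113). Rgs9 kept it only without ATF3 replicate 7 or CHOP replicate 1 (lowest 0.56, largest adjusted p = 0.131), and Abca4 only without CHOP replicate 3 (lowest 0.72, largest adjusted p = 0.113). Pde6a lost it without any one ATF3 library or without CHOP replicate 3 or 4 (lowest 0.86, largest adjusted p = 0.101), and Pdc without CHOP replicate 4 (0.73, adjusted p = 0.0508). With only these 10 libraries in the fit, 24 members were called higher.

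The CHOP knockouts were also above the CEBPG knockouts. Here 26 of 30 members were higher in CHOP and 0 lower, but the background was larger, with 13.2% of all genes called higher and 13.5% lower. The median log2 difference was 0.82 (1.77-fold), against 0.03 over all genes, and 9 members did not overlap, all higher in CHOP, where 9.92% of all genes stood apart that way and 11.3% the other way. Prph2 was 0.88 higher (SE 0.16, edgeR adjusted p = 0.000227), Rgs9 0.98 higher (SE 0.18, adjusted p = 0.000315) and Sag 0.86 higher (SE 0.17, adjusted p = 0.000454). The largest difference was that of Pde6b, 1.12 (SE 0.22). Gngt1 was at -0.03 (interval -0.40 to 0.34), and Guca1a (0.40), Gucy2f (0.93) and Rp1 (0.55) did not pass either. Leaving out each library in turn kept 21 of the 26 calls throughout. Nr2e3 lost its call without CEBPG replicate 6, 9 or 10 or CHOP replicate 2, 3 or 4 (largest adjusted p = 0.133), Pde6a without CEBPG replicate 6, 8 or 10 or CHOP replicate 3 or 4 (0.117), and Grk1 without CEBPG replicate 6, 9 or 10 or CHOP replicate 3 or 4 (0.0685). Unc119 lost its call without CEBPG replicate 6 or 10 or CHOP replicate 3 or 4 (largest adjusted p = 0.0619), and Pdc without CEBPG replicate 10 (0.0502). The rise was not particular to rod members. Of the lists described below, 8 of 10 amacrine markers were higher in CHOP and 0 lower (median 0.8). These counts were 9 and 0 for 14 photoreceptor synapse and transcription genes (0.71), and 11 and 0 for 23 structure and trafficking genes (0.61). They were 6 and 3 for 10 Müller glia markers (0.51), and 2 and 0 for 10 bipolar markers (0.31).

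CEBPG and ATF3 knockouts were close for most members. Crx was lower in CEBPG than in ATF3 knockouts by 0.83 on the log2 scale (SE 0.19, edgeR adjusted p = 0.00267), Unc119 was lower by 0.65 (SE 0.14, adjusted p = 0.00124), and Nr2e3 was higher by 0.52 (SE 0.18, adjusted p = 0.0446). The groups did not overlap for these 3 members, and 27 did not pass. Non-overlap was found in 11.2% of all genes lower and 11.1% higher in CEBPG. All-gene shares were 10.1% called lower and 10.2% higher, so 2 and 1 of 30 are no more than the background. The median difference was -0.08, against 0 over all genes, and it turned to 0.02 without CEBPG replicate 10 and to 0.03 without CEBPG replicate 6. The Nr2e3 call was lost in 7 of 9 leave-one-out fits (without ATF3 replicates 6, 7, 8 or 9, or CEBPG replicates 6, 8 or 9), with adjusted p up to 0.172, and it was lost without CEBPG replicates 6 and 8 together (0.40, adjusted p = 0.236). The calls of Crx and Unc119 held in all 9, with Crx between -1.05 and -0.66. Without CEBPG replicate 8 the number called lower was 5, and without both libraries it was 4.

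**Figure D5:**
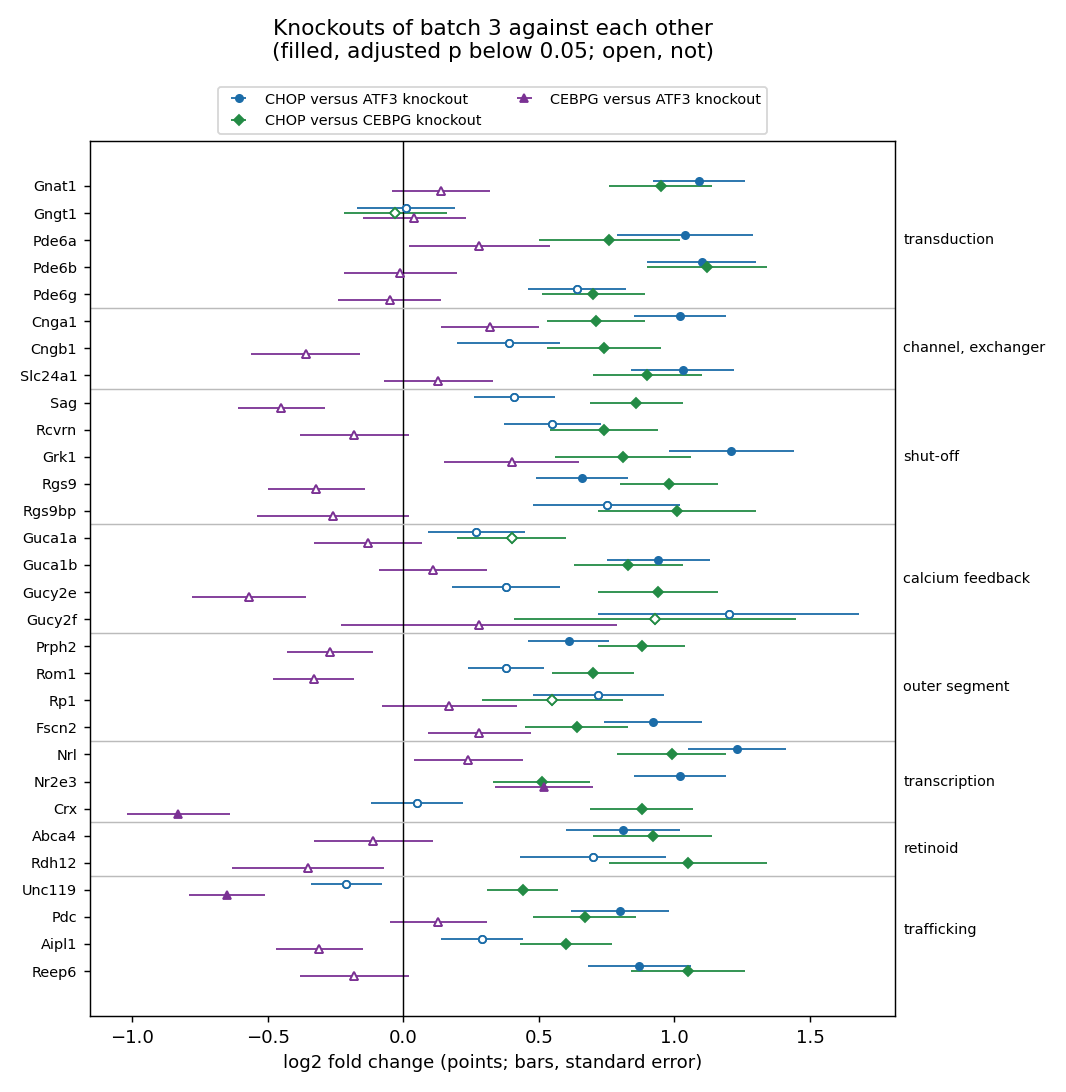
Log2 fold change (x axis, points) with standard error (bars) for each rod gene (rows, by role) in the 3 comparisons among the batch 3 knockouts, filled where the adjusted p was below 0.05 and open where not. CHOP lies above ATF3 and CEBPG for most genes, with Gngt1 near 0 in each comparison and Crx near 0 only for CHOP versus ATF3.

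Other photoreceptor genes were read beside the members. Of 23 measured genes for photoreceptor structure and trafficking, 22 were lower in ATF3, 20 in ATF4, 21 in CEBPG and 21 in CHOP knockouts than in controls, and none was higher. Over all genes 14.8% were called lower in ATF3, 14.6% in ATF4, 15% in CEBPG and 15.4% in CHOP knockouts. Of 14 genes for the photoreceptor synapse and transcription, 14 were lower in each knockout. In CEBPG knockouts these included Rax, a retinal homeodomain factor (28.9 ± 9.10 CPM in CEBPG knockouts and 328 ± 47.6 CPM in controls, n = 4 each, -3.49, SE 0.19), and Mpp4, a scaffold of the photoreceptor terminal (66.3 ± 12.9 CPM in CEBPG knockouts and 822 ± 244 CPM in controls, -3.63, SE 0.20). Both medians, from -2.40 to -1.66 for structure and from -3.24 to -2.13 for synapse and transcription, were smaller in size than that of the 30 members in the same knockout. Between CEBPG and ATF3 knockouts these lists were less alike than the members. In CEBPG 7 of the 23 structure genes were lower and 0 higher (median -0.29). Of the 14 synapse and transcription genes 7 were lower and 0 higher (-0.52). All-gene shares there were 10.1% lower and 10.2% higher.

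Cone genes were counted in the same way. Of 12 cone phototransduction genes, 9 were lower in ATF3, 10 in CEBPG and 9 in CHOP knockouts than in controls. The medians of the list were -0.93, -1.40 and -1.17, and 1 gene was higher in CHOP knockouts (Slc24a2, an exchanger gene, 0.82, SE 0.22). Shares of all genes called lower were 14.8%, 15% and 15.4% in the same order, and 18.1% were called higher in CHOP knockouts. In ATF4 knockouts 2 were lower, 2 were higher and 8 did not pass, with a median of -0.04. Over all genes in ATF4 knockouts 14.6% were called lower and 16.6% higher, so these counts are near the background. Opn1sw, the short-wavelength cone opsin, was at 1512 ± 117 CPM in ATF4 knockouts (n = 2) and 1558 ± 175 CPM in controls (n = 4), a log2 fold change of -0.04 (SE 0.15). The cone arrestin Arr3 was at 615 ± 110 CPM in ATF4 knockouts and 573 ± 143 CPM in controls (0.10, SE 0.21), and the cone transducin Gnat2 at 437 ± 26.1 CPM in ATF4 knockouts and 451 ± 64.9 CPM in controls (-0.05, SE 0.18). These 3 genes were picked after their values were seen, and the log2 fold changes of all 12 ran from -1.53 to 1.23. Thrb averaged 26.4 CPM in ATF4 knockouts and 76.3 CPM in controls, and Pde6c 93.3 and 199 CPM. Others went the other way, with Slc24a2 at 60.8 CPM in ATF4 knockouts and 25.8 CPM in controls, and Pde6h at 414 and 288 CPM. In the same libraries Gnat1 fell by 4.08 and Sag by 2.44. Within batch 3, 2 of the 12 cone genes were lower and 1 higher in CHOP than in ATF3 knockouts (median -0.09), with all-gene shares of 1.51% and 0.756%. In CEBPG against ATF3 knockouts 6 were lower and 0 higher (-0.46), with shares of 10.1% and 10.2%. In CHOP against CEBPG knockouts 1 was lower and 6 were higher (0.45), with shares of 13.5% and 13.2%. Cone genes were not compared between ATF4 and another knockout.

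Other retinal cell types were read from their markers. Of 10 amacrine markers, 9 were higher in ATF3, ATF4 and CHOP and 8 in CEBPG knockouts than in controls, where the share of all genes called higher was 18.6% for ATF3, 16.6% for ATF4, 18.1% for CHOP and 18.3% for CEBPG knockout. Their summed share was 0.603% to 0.626% in ATF3, 0.456% and 0.534% in ATF4, 0.349% to 0.445% in CEBPG and 0.711% to 0.822% in CHOP knockouts, against 0.158% to 0.280% in controls. The share of 10 Müller glia markers was 1.05% to 1.23% in ATF3, 1.24% and 0.998% in ATF4, 0.821% to 1.03% in CEBPG and 0.563% to 0.703% in CHOP knockouts, against 0.515% to 0.828% in controls. The largest part of that sum in every group was Apoe, a lipid carrier, at 8434 CPM in ATF3, 7791 in ATF4, 7064 in CEBPG and 3160.4 CPM in CHOP knockouts, against 3897 CPM in controls. By count, 4 of the 10 were lower and 3 higher in ATF3 (median -0.13), 0 and 6 in ATF4 (0.58), 5 and 3 in CEBPG (-0.58), and 5 and 1 in CHOP knockouts (-0.49). Glul, the glutamine synthetase gene, was lower in ATF3 (-0.74), CEBPG (-1.20) and CHOP (-0.62) and higher in ATF4 knockouts (0.84). The 10 bipolar markers summed to 0.143% to 0.164% in ATF3, 0.118% and 0.132% in ATF4, 0.0468% to 0.0779% in CEBPG and 0.0588% to 0.0832% in CHOP knockouts, against 0.121% to 0.173% in controls, with 3 lower and 2 higher in ATF3, 3 and 1 in ATF4, 10 and 0 in CEBPG, and 9 and 0 in CHOP knockouts. No Müller or bipolar marker was at 0 in any library, and at most 1 amacrine marker was. Between CHOP and ATF3 knockouts 9 of the 10 bipolar markers were lower in CHOP, while 15 rod members were higher. The other bipolar marker, Prkca, was higher (70.8 CPM in CHOP and 47.3 CPM in ATF3 knockouts, edgeR adjusted p = 0.0354). Over all genes 1.51% were called lower and 0.756% higher in that comparison. Otx2, which bipolar cells and photoreceptors share, was 1.06 lower (59.3 ± 7.61 CPM in CHOP and 123 ± 6.35 CPM in ATF3 knockouts, n = 5 each, edgeR adjusted p = 0.000528). The part of these other cells in the rod results was not tested.

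The authors' deposited table of fold changes gives the same direction for every member. In the authors' deposited table, 19 of the 30 members were lower at FDR below 0.05 for ATF3 knockout (median log fold change -2.34), 27 for ATF4 (-4.30), 30 for CEBPG (-2.58) and 11 for CHOP (-1.90). Over all genes in the authors' deposited table the shares called lower were 2.75% (ATF3), 3.63% (ATF4), 10.3% (CEBPG) and 2.27% (CHOP). The sources used here give neither the model behind that table, nor its control libraries, nor the base of its logarithm.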

How the data were processed

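Retinas were dissociated with papain and sorted by flow cytometry, and libraries were made with SMART-Seq v4, per the labels' protocols. The sources used here do not name the sort gate. STAR, Picard, HTSeq, edgeR and mm10 are named without versions or settings, per the submitters' processing notes.

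The authors deposited raw read counts per gene (whole numbers, 21 libraries), a sample sheet that gives duplicates as a fraction (48.0% to 57.6% when written as percent), and a table of log fold changes, taken as log2 where the authors state no base, with p-values and FDR. A further 40 columns of per-sample values were not used. One library with a control title and a CHOP genotype label entered no group. The sheet calls ATF4 replicate 1 female, but it had 59.4 CPM of Ddx3y and 0.251 CPM of Xist before TMM scaling.

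In R 4.3.3, edgeR 4.0.16 filtered genes (filterByExpr, minimum count 10, 367 removed), applied TMM and fitted all 20 libraries by group (robust quasi-likelihood, biological coefficient of variation 0.407). All 30 members passed the filter. Calls used Benjamini-Hochberg adjusted p below 0.05 over 16797 genes, and the step was tested on simulated data. DESeq2 1.42.0, other scalings and filters, thinning to 6401446 reads and leaving libraries out were the alternatives. The labels do not say that a group's libraries are separate animals, so the p-values reflect spread among libraries that may be technical. Within-group pairs differed by more than counting noise (chi-square per gene 12.9 to 64.6).

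The members, roles and other lists were chosen with earlier results of these data known. Values in every library are given for the 2 most abundant members of each role and for the members with the smallest adjusted p between knockouts, up to 3 per comparison and direction. Of the other lists, genes were named by adjusted p, or as said in the text.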

Additional observations from a re-analysis of the deposited data

Results flagged for a closer look

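Of 124 groups of member values with 4 or 5 libraries, 3 (2.42%) held a library far from the rest by Dixon's criterion, which chance gives in about 1 in 20 groups. Guca1b in ATF3 replicate 6 was low at 107 CPM, against 114 CPM in the nearest ATF3 library. Grk1 in CEBPG replicate 8 was high at 49.8 CPM, against 26.2 CPM in the nearest. Rp1 in CEBPG replicate 8 was high at 161 CPM, against 73.9 CPM in the nearest.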

How the results depend on the processing

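Against control, 1946 of 1950 member values under an alternative kept their direction and their call, 4 lost the call and 0 reversed. The replicate numbers of the titles do not pair the libraries (same-numbered libraries correlated between -0.05 and 0.03), and a fit with the number as a replicate block left 28 members called lower for ATF4 and 29 for CHOP. With that replicate block 0 members were called higher for CHOP against ATF3 knockout, 0 for CHOP against CEBPG knockout and 0 for CEBPG against ATF3 knockout. CHOP and CEBPG knockouts share no replicate number, and CHOP and ATF3 knockouts share only number 5. The block is therefore nearly confounded with both CHOP comparisons, so it cannot judge their calls. With only the libraries of both groups, 24 were higher for CHOP against ATF3 knockout. The Nr2e3 call for CEBPG against ATF3 knockout was lost, leaving 0 called higher, with scaling that left out photoreceptor genes and without CEBPG replicates 6 and 8 together, an alternative chosen after seeing the data, which gave 4 called lower. Leaving out each library in turn gave 10 to 16 higher for CHOP against ATF3, 21 to 28 for CHOP against CEBPG, and 2 to 5 lower and 0 to 1 higher for CEBPG against ATF3 knockout. The median for CEBPG against ATF3 knockout changed sign without CEBPG replicate 10 (0.02) and without CEBPG replicate 6 (0.03), in a range of -0.33 to 0.03. The causes were not tested. DESeq2 called 16 and 26 members higher for CHOP against ATF3 and CEBPG, and counts thinned to the smallest library called 15 and 26.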

Other observations

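The library titled as a control but labelled CHOP knockout by genotype, non-targeting and of batch 4 in the sheet, held 33665965 counted reads. Rod genes took 1.09% of them, above all 16 knockout libraries and below all 4 controls. In CPM without TMM scaling, 29 of the 30 members were below the lowest control and 1, Guca1a with 476, was inside the control range. Compared with the knockouts, 17 members were above all 16 libraries and 1 was below all. The share of all genes for which this library lay outside the same ranges was not counted. These member counts therefore have no background and cannot be read as particular to rod genes. Its ratio of Gnat1 to Sag reads was 0.463 and of Nr2e3 to Crx reads 0.086, each below every other library. Cone genes took 1.37% of its reads, against 0.419% to 0.592% in the controls.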
